A study of Mus musculus with 8 samples.

Results

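The homing and adhesion receptors considered here are 9 mouse genes, chosen by name: the chemokine receptors Cxcr4, Cxcr5, Ccr7 and Ccr9, the sphingosine-1-phosphate receptor S1pr1, the integrin subunits Itga4, Itgb1 and Itgb7, and the hyaluronan receptor Cd44. They are 9 of the 26127 genes that carry a symbol in the pre-B cell files, and all 9 have values there. Their transcripts were measured by RNA-seq of pre-B cells sorted from bone marrow, and their chromatin by Omni-ATAC-seq, which cuts open chromatin with a transposase, in LSK cells (Lin- Sca1+ cKit+, the compartment of stem and multipotent progenitor cells). Each assay has 2 libraries of WT and 2 of Dido1∆E16 mice, and the labels name replicates without saying whether LSK libraries came from separate mice, so p-values measure only the spread between these samples.

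All mice were C57BL/6 and 6 to 10 weeks old. The mutants were Dido1 flE16/∆E16;R26R-EYFP;iCre Vav1 animals, in which exon 16 of Dido1, the exon that encodes the C terminus of the chromatin reader Dido3, is removed from one allele in the germline and from the other by Cre. The controls called WT were Dido1 flE16/+;R26R-EYFP;iCre Vav1 littermates, so both groups carried the Cre transgene, the EYFP reporter and a floxed allele, and the controls kept an intact Dido1 allele. Cre was driven by the Vav1 promoter, which is active throughout the blood lineage, so deletion was directed to stem cells and to the blood cells that descend from them, including those around the pre-B cells. RNA came from pools of 2 to 3 mice. The RNA sort is stated without a CD43 gate, so it could hold pro-B as well as pre-B cells.

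These receptors decide where a B cell precursor stays. Cxcr4 binds Cxcl12 from marrow stroma and retains precursors there, while the integrin of Itga4 and Itgb1 (VLA-4) holds them on Vcam1. Itga4 pairs with Itgb7 to bind Madcam1 in the gut, Cd44 binds hyaluronan, and S1pr1 draws cells into blood along the sphingosine-1-phosphate gradient. Ccr7 and Cxcr5 guide mature lymphocytes into T cell zones and B cell follicles, and Ccr9 responds to Ccl25 of thymus and gut.

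Sequences come first for the regions on which the chromatin results turn. RefSeq (GRCm38.p6) gave a promoter window, 250 bases before to 50 after the start, for 6 of the 9 genes: Cxcr4, Ccr9, Itga4, Itgb1, Itgb7 and Cd44. Of the following 4 windows, those of Itgb1 and Itga4 overlapped a peak in all 4 LSK libraries, that of Cxcr4 in 2 (WT replicate 2 and Dido1∆E16 replicate 2) and that of Ccr9 in none. Capitals mark CpG dinucleotides.
Itgb1 promoter, chr8:128685404-128685703, plus strand: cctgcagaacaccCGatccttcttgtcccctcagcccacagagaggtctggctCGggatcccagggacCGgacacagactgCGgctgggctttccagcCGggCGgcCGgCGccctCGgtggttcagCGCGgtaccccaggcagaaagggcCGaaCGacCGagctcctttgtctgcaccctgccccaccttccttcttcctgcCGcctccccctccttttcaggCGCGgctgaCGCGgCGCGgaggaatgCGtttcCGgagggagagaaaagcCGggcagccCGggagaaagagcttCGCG
Itga4 promoter, chr2:79255176-79255475, plus strand: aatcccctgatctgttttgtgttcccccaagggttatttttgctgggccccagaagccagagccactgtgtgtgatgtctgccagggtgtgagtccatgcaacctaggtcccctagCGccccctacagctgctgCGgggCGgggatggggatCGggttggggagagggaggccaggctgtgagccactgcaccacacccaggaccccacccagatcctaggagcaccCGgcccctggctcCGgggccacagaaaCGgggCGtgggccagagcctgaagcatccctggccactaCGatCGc
Cxcr4 promoter, chr1:128592250-128592549, minus strand: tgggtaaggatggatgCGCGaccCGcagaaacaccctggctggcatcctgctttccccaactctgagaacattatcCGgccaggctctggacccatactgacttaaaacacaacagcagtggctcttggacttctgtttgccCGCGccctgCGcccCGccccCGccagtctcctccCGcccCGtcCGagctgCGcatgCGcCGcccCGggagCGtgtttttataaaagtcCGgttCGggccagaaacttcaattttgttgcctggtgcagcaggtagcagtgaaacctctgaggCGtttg
Ccr9 promoter, chr9:123766961-123767260, plus strand: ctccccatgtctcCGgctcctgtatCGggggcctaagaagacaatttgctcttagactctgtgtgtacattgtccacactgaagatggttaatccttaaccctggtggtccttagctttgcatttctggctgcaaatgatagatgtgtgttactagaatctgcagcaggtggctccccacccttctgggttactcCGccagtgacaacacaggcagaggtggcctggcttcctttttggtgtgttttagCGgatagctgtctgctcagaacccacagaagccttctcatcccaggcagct

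CpG dinucleotides numbered 27 in the Itgb1 window, 20 in that of Cxcr4, 10 in that of Itga4, 6 in that of Cd44, 5 in that of Itgb7 and 4 in that of Ccr9, against a median of 7 over the 32851 promoter windows of the table. The 2 poorest windows, of Ccr9 and Itgb7, overlapped no peak in any library. The window of Cd44, with 6, overlapped a peak in 3 libraries, and the peak of the other library lay just downstream of it. Searched on both strands, the GC box GGGCGG occurred 3 times in the Cxcr4 window, once each in those of Itga4, Itgb1 and Cd44, and not in those of Ccr9 and Itgb7, and 35.7% of all promoter windows held it.

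Next come distal regions of Itgb1 (at -30.5 kb from its start) and Cxcr4 (at -22.3 kb), printed because they had a peak in all 4 LSK libraries and, in WT replicate 2, the highest score of any region of their gene. Each window holds 300 bases of the plus strand of GRCm38, centred on the bases under a peak in every library. Capitals mark matches, on either strand, to the promoter box GGGCGG, the core motif of PU.1 GAGGAA, the core motif of RUNX factors TGTGGT, the core motif of GATA factors AGATAA, the general E-box CAGCTG and the E2A-type E-box CAGGTG.
Itgb1 distal region, chr8:128654738-128655037: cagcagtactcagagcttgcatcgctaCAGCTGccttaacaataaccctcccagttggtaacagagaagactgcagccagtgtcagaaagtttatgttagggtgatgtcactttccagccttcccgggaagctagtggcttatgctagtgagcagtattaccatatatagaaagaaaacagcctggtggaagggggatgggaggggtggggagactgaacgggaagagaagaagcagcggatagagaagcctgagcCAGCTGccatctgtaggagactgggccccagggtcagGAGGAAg
Cxcr4 distal region, chr1:128614900-128615199: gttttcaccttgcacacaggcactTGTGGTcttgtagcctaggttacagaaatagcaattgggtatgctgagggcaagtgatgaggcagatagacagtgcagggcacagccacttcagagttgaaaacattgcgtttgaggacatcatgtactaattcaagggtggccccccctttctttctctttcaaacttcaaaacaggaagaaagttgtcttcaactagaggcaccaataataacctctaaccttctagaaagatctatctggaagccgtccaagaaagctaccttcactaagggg

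The Itgb1 region held 2 CAGCTG and 1 GAGGAA, and the Cxcr4 region 1 TGTGGT. Among 9195 windows of the same length cut from regions with a peak in all 4 libraries, 17.5% held CAGCTG, 28.9% GAGGAA and 15.9% TGTGGT. A match is a description of the letters. The distal windows held 4 and 2 CpG, where the median of the 9195 windows was 23. Those 9195 windows, also the base of the motif shares, include promoters, and distal windows alone were not counted.

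The libraries checked as follows. Scaled coverage of Dido1 exon 16 (chr2:180657963-180662583) was 24.6 and 21.8 in the WT and 0.295 and 0.084 in the Dido1∆E16 pre-B libraries. Summed coverage ran from 1121 to 1635 Mb of aligned bases per RNA library. Small pre-B markers (Rag1, Cd79a, Pax5 and 5 others) summed to between 10834 and 13008 TPM in every library, so the sort held B cell precursors. Pro-B and large pre-B markers summed to 1240 and 203 TPM in WT and to 2597 and 1762 in the mutants, and neutrophil and monocyte markers to 244, 2213, 1071 and 9661 TPM in the same order. Erythroid markers summed to 95.9, 215, 212 and 1775 TPM. The list of 10 T and NK cell markers summed to between 4.83 and 26.0 TPM, with 6 of them listed at 0 in all libraries. Mature B cell markers summed to between 1414 and 1715 TPM with Ighd listed at 0. Plasma cell markers (Jchain, Xbp1, Prdm1, Irf4, Sdc1 and Mzb1) summed to between 1408 and 1755 TPM. That list holds no switched constant region gene, so it cannot show switched B cells. The paper reports Igg2b transcription in the mutant pre-B samples and reads it as more co-purified IgG2b+ memory B cells than in WT. The part of such cells in the receptor values was not tested. Plasmacytoid dendritic markers, a list that includes Ccr9, summed to between 3196 and 4912 TPM. In the LSK files, 4 of 8 marker genes (Kit, Cd34, Flt3 and Meis1) had a promoter peak in all 4 libraries. Gata2 had one in WT replicate 1 alone and Mecom in WT replicate 2 alone, while Hoxa9 and Ly6a, which encodes the Sca1 of the sort, had none, with 1 peak elsewhere in WT replicate 2 each.

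In pre-B cells, 1 receptor gene dominated the group. Values are TPM, an abundance scaled for transcript length and for the total of the library, summed over the transcripts of each gene. Cxcr4 (chr1:128588199-128592299, minus strand) had 1015 and 2579 TPM in WT replicates 1 and 2 and 1400 and 963 TPM in Dido1∆E16 replicates 1 and 2. It was higher than 99.5% of the 11859 genes tested. Ccr7, with a mean of 255 TPM, S1pr1 with 196, Itga4 with 118 and Cd44 with 89.5 followed, then Itgb1 with 46.9, Cxcr5 with 30.3 and Itgb7 with 8.47. Ccr9 stood last at 0.655. Cxcr4 lay above Ccr7, Cd44 above Itgb1, Cxcr5 above Itgb7 and Itgb7 above Ccr9 without overlap of their ranges, while the neighbours Ccr7 and S1pr1, S1pr1 and Itga4, Itga4 and Cd44, and Itgb1 and Cxcr5 overlapped.

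**Figure D1:**
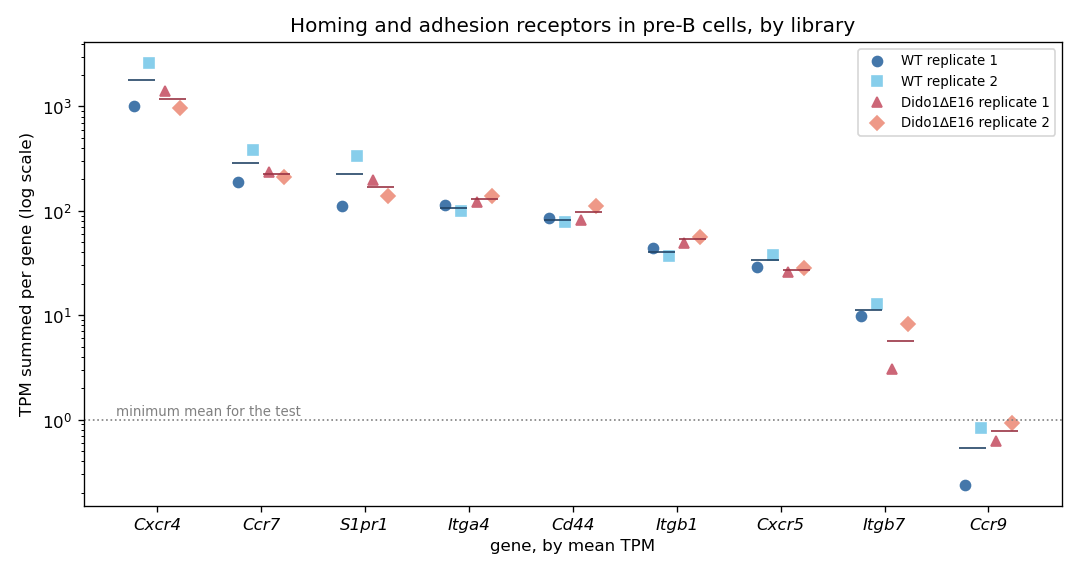
TPM summed per gene (log axis) in each of the 4 pre-B libraries for the 9 receptor genes, ordered by mean, with a short line at the mean of each genotype and a dotted line at the minimum mean of 1 TPM for the test. Cxcr4 lies above the other genes in every library, and WT replicate 2 is the highest point for Cxcr4, Ccr7 and S1pr1.

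None of the 8 receptor genes that passed the minimum of 1 mean TPM differed between genotypes by limma with Benjamini-Hochberg adjustment over all 11859 genes. Genes counted as called had an adjusted p below 0.05 and moved by 0.6 or more in either direction on the log2(TPM + 1) scale, which understates changes of low genes. Of all genes, 6 (0.0506%) met it, with 1384 genes at an unadjusted p under 0.05, none of them a receptor gene considered here. Fewer cells that carry a receptor and less of its RNA per cell cannot be told apart in these bulk samples. In a simulation of this comparison, genes changed by 1 log2 unit were called in 0% of cases and genes changed by 2 units in 39%, so differences of the size seen here were not detectable with 2 libraries a group.

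The 4 chemokine receptors come first. For Cxcr4 the WT mean was 1797 ± 1106 TPM (SD, n = 2) and the Dido1∆E16 mean 1181 ± 309 (SD, n = 2), and the log2 fold change was -0.48 (SE 0.51, 95% interval from -1.88 to 0.92, limma adjusted p = 0.760). WT replicate 2 was the highest library by far, and the groups overlapped, since Dido1∆E16 replicate 1 lay between the WT values. Ccr7 (chr11:99144199-99155077) had 190 and 383 TPM in WT and 237 and 212 in the mutants, with both mutant values between the WT values. Its log2 fold change was -0.27 (SE 0.37, interval -1.27 to 0.73, limma adjusted p = 0.818).

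Cxcr5 (chr9:44511787-44526440) had 29.1 and 37.9 TPM in WT and 26.2 and 28.2 in the mutants. Both mutant values lay below both WT values, by a small margin. The log2 fold change was -0.28 (SE 0.20, limma adjusted p = 0.674). Ccr9 was barely present, with 0.236 and 0.826 TPM in WT and 0.626 and 0.931 in the mutants, and was not tested. Its TPM came from a transcript that starts at chr9:123767211 in 3 libraries and from a longer one that starts at chr9:123678096 in Dido1∆E16 replicate 1 alone.

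S1pr1 (chr3:115710433-115715055), the egress receptor, had 112 and 337 TPM in WT and 197 and 140 in the mutants. The mutant values lay between those of the WT libraries, which differed from each other by 3.02 times. The log2 fold change was -0.22 (SE 0.58, interval -1.81 to 1.37, limma adjusted p = 0.914). A second transcript within the gene, without a symbol in the files, had 18.2 and 35.8 TPM in WT and 18.0 and 7.81 in the mutants, and adding it gave a log2 fold change of -0.30.

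Cxcr4, Ccr7 and S1pr1 shared 1 feature: WT replicate 2 was at least 1.5 times as high as each other library. This held for 3 of the 8 tested receptor genes and for 3.31% of all genes tested, and the pattern was chosen after the values were seen. Without WT replicate 2 the log2 fold changes of these 3 genes turned to 0.19, 0.23 and 0.57, and without WT replicate 1 they were -1.15, -0.77 and -1.02. The same library had the lowest sum of pro-B and large pre-B markers, and the part of cell composition in these values was not tested. Among genes outside the naming rule, picked for their values, Cd69, whose protein removes S1pr1 from the cell surface, had 56.6 and 867 TPM in WT and 293 and 38.0 in the mutants. Klf2, a transcription factor that activates S1pr1, had 723 and 1132 TPM in WT and 1101 and 612 in the mutants.

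The integrin subunits of VLA-4 were higher, and Itgb7 lower, in each mutant library, without passing the test. Itga4 (chr2:79255426-79333114) had 115 and 98.8 TPM in WT and 120 and 139 in the mutants. Both mutant values lay above both WT values, and the log2 fold change was 0.28 (SE 0.15, interval -0.14 to 0.70, limma adjusted p = 0.593). Its partner Itgb1 (chr8:128685654-128733579) had 44.3 and 36.8 TPM in WT and 49.6 and 56.7 in the mutants. There too the groups did not overlap, with a log2 fold change of 0.38 (SE 0.17, interval -0.09 to 0.86, limma adjusted p = 0.516).

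Itgb7 (chr15:102215995-102231935), the other partner of Itga4, had 9.82 and 12.8 TPM in WT and 3.06 and 8.18 in the mutants. Both mutant values lay below both WT values, and the means were 11.3 ± 2.12 and 5.62 ± 3.62 TPM (SD, n = 2 each). This was the largest difference among the tested receptor genes, a log2 fold change of -1.0 (SE 0.49, interval -2.33 to 0.32, limma adjusted p = 0.544), and 13.3% of all genes tested had a larger absolute change. It was -0.41 without Dido1∆E16 replicate 1 and -1.59 without Dido1∆E16 replicate 2. Of its 14 exons before the last, 8 had lower coverage in both mutant libraries than in both WT libraries and none had higher. These exons are parts of the same transcript, so they describe the gene sum and add no separate evidence.

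Counted over the 8 tested genes, both mutant values lay below both WT values for 2 (Cxcr5 and Itgb7), above for 2 (Itga4 and Itgb1), and overlapped for 4. Over all 11859 genes the shares were 15.5% below and 27.2% above, so the receptor genes stood near the background. Cd44 (chr2:102811142-102901665) was among the overlapping genes, with 85.8 and 78.1 TPM in WT and 82.5 and 112 in the mutants and a log2 fold change of 0.23 (SE 0.19, limma adjusted p = 0.70).

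**Figure D2:**
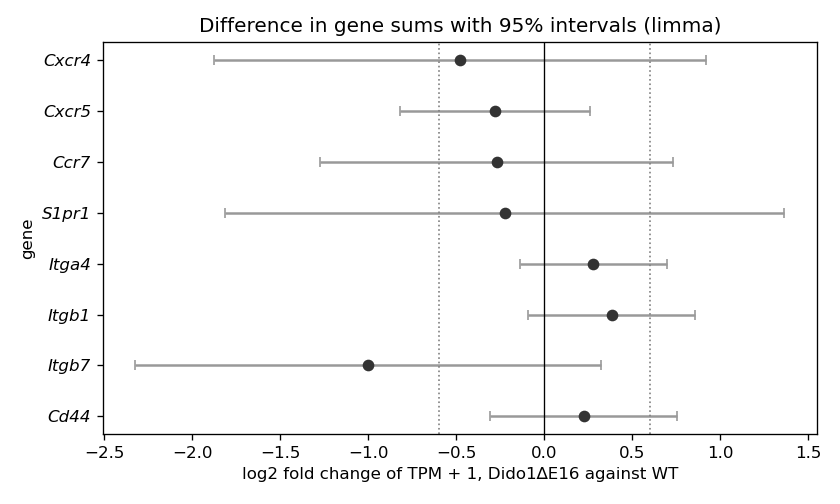
Log2 fold change of TPM + 1, Dido1∆E16 against WT, for the 8 tested receptor genes, with 95% intervals from limma and dotted lines at -0.6 and 0.6. Every interval crosses 0, from Itgb7 at -1.0 to Itgb1 at 0.38.

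A single UCSC transcript carried nearly all of the TPM of each tested gene: from 98.3% to 99.6% for Itga4, at least 98.8% for Cd44 and all of it for the other 6. Fitted by transcript, none of these 8 was called either, where 25 of 16372 transcripts (0.153%) were. The files also give coverage per exon, which was read along Cd44. The annotated transcript has 19 exons, of which the outer 9 belong to the standard form, while the 10 between them (exons 6 to 15, chr2:102831330-102848782) hold the variable exons that are spliced in by activated and epithelial cells. The 10 variable exons had 2.60 and 4.40 mean scaled coverage in WT and 2.98 and 2.87 in the mutants, against 109, 98.6, 104 and 141 for the other 9. They stood at 2.38% and 4.47% of the other exons in WT and at 2.86% and 2.04% in mutant libraries. These 10 exons were set apart by coverage under 10% of the highest exon in every library. Their low share follows from that choice and is no test of the form of Cd44. What the values show is that the exons so chosen were the consecutive exons 6 to 15.

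For Itga4 the exons told apart what the gene sum joined. The last exon, 6595 bp long, had scaled coverage of 137 and 116 in WT and 129 and 142 in the mutants, which overlapped. The 27 exons before it had 63.8 and 59.9 in WT and 95.8 and 133 in the mutants, and 25 of the 27 were higher in both mutant libraries than in both WT libraries. The log2 ratio of the earlier exons to the last was -1.11 and -0.95 in WT and -0.43 and -0.09 in mutant libraries, a difference of 0.77 (SE 0.18, limma unadjusted p = 0.00710, adjusted p = 0.173 over 6358 transcripts). It was larger than that of 95.6% of these transcripts.

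The same ratio was higher in the mutant libraries for most transcripts. Over the 6358 transcripts (at least 5 exons and a mean of at least 10 TPM) it was higher in both mutant than in both WT libraries for 62.5%, the median change was 0.30, and limma called 1 of them (adjusted p below 0.05). The differences of Itgb1 (0.29, limma adjusted p = 0.238) and Cd44 (0.31, limma adjusted p = 0.232) were close to that median. The comparison by exon was added after the data were seen, and the part of RNA quality or library preparation in the shift was not tested.

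**Figure D3:**
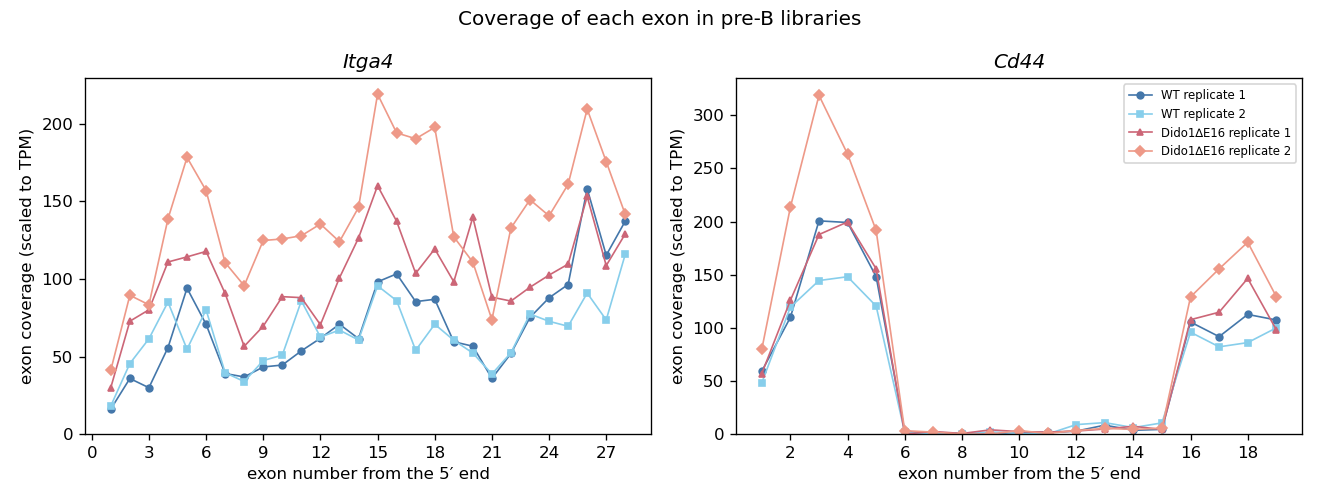
Coverage of each exon, scaled to TPM, by exon number from the 5′ end of the main transcripts of Itga4 and Cd44 in the 4 pre-B libraries. For Itga4 the Dido1∆E16 lines run above the WT lines over most exons and meet them at the last exon, and for Cd44 exons 6 to 15 lie near 0 in every library.

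The genes around these receptors were taken from 7 lists with 116 entries, of which 86 could be tested. None of them was called in either direction, where 0.0506% of all genes were. Over all genes tested, both mutant values lay above both WT values for 27.2% and below them for 15.5%. The counts of each list are to be read beside these shares. The regulators of chemokine receptor signalling numbered 20, all tested, with 5 above and 5 below both WT values and a median log2 fold change of 0.04, beside 0.07 over all genes. Grk6, a kinase that phosphorylates Cxcr4 and ends its signal, had 303 and 294 TPM in WT and 117 and 110 in the mutants, a log2 fold change of -1.39 (SE 0.11, limma adjusted p = 0.126). Rgs19, which speeds the hydrolysis of GTP by G-alpha-i, had 215 and 257 against 128 and 142 TPM (-0.79, adjusted p = 0.225). Grk5 had 3.46 and 4.32 against 6.26 and 7.77 TPM (0.71).

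Of 20 other chemokine receptors 9 were tested, with 2 above and 1 below both WT values and a median log2 fold change of 0.89. Ackr3, the second receptor of Cxcl12, which takes the ligand up without G protein signalling, had 1.11 and 4.90 TPM in WT and 33.1 and 17.7 in the mutants, a log2 fold change of 2.84 (SE 0.64, limma adjusted p = 0.279). Ccr6, the receptor of Ccl20, had 4.59 and 3.02 against 1.03 and 1.14 TPM (-1.18). A list of 11 genes held the ligands, together with Hmmr, another hyaluronan receptor, and Has2, a hyaluronan synthase. Of this list 5 genes were tested, Hmmr among them, with 1 above, 1 below and a median of 1.42. The part of myeloid cells in that median was not tested either. Ccl25, the ligand of Ccr9, had 12.8 and 9.98 TPM in WT and 41.5 and 24.3 in the mutants (1.42, adjusted p = 0.294), and Spp1, an integrin ligand, 5.28 and 9.27 against 4.02 and 0 TPM (-1.84). Outside the naming rule, the stromal ligands Cxcl13, Ccl19 and Madcam1 were listed at 0 in all libraries, but others of the list were not. Vcam1 had 0 and 5.91 TPM in WT and 3.32 and 20.6 in the mutants, and Fn1 0 and 1.53 against 1.03 and 12.9 TPM. Cxcl12 had 0.484 TPM in Dido1∆E16 replicate 2 alone.

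Other integrin subunits numbered 15, of which 9 were tested, with 5 above and none below both WT values (27.2% and 15.5% over all genes). Their median log2 fold change was 0.59. Itgb3, the beta subunit of the vitronectin receptor and of the platelet integrin, had 22.8 and 12.9 TPM in WT and 45.9 and 52.5 in the mutants (1.46, limma adjusted p = 0.261). Its partner Itga2b had 0 and 1.41 against 6.88 and 4.92 TPM (2.14), and Itgam, the myeloid subunit, 22.4 and 27.4 against 43.1 and 71.9 TPM (1.14). These stood beside the higher myeloid and erythroid sums of Dido1∆E16 replicate 2 given above, whose part was not tested. Of 13 genes of sphingosine-1-phosphate receptors and metabolism with Cd69 and Klf2, 11 were tested, with 5 above, none below and a median of 0.25. Spns2, an exporter of sphingosine-1-phosphate, had 36.1 and 50.1 TPM in WT and 120 and 92.4 in the mutants (1.29, adjusted p = 0.224), Mfsd2b, the exporter of red cells and platelets, 0.495 and 0 against 3.07 and 3.25 TPM (1.77), and S1pr3 4.88 and 6.99 against 11.8 and 9.14 TPM (0.73).

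Integrin activation was represented by 17 genes, 16 of them tested, with 5 above and 4 below both WT values and a median of 0.09. Rasgrp2, which activates Rap1 downstream of chemokine receptors, had 169 and 227 TPM in WT and 371 and 292 in the mutants (0.75, limma adjusted p = 0.347), Cib1 370 and 501 against 319 and 309 TPM (-0.45), and paxillin (Pxn) 78.2 and 65.5 against 95.5 and 101 TPM (0.45). Of 20 other adhesion molecules 16 were tested, with 6 above, 5 below and a median of 0.31. Cd9, a tetraspanin, had 6.17 and 14.8 TPM in WT and 16.1 and 28.9 in the mutants (1.09), Spn (Cd43), a sialomucin of early B cells, 46.3 and 21.4 against 54.9 and 49.2 TPM (0.70), and Cd72, an inhibitory coreceptor, 987 and 1264 against 898 and 663 TPM (-0.53).

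In LSK cells fewer accessible regions were called at the receptor genes in both mutant libraries, as over the whole genome. MACS2 peaks annotated to the 9 genes numbered 43 and 106 in WT and 23 and 22 in the mutants, out of 27352, 57739, 13208 and 16329 peaks in all. The difference of the means, mutant minus WT, was -52.0 peaks and had an exact two-sided permutation p of 0.333, the smallest that 2 against 2 libraries allow. It was -20.5 without WT replicate 2 and -83.5 without WT replicate 1. Per 10000 peaks of the library, the 9 genes had 15.7 and 18.4 in WT and 17.4 and 13.5 in mutant libraries, which overlapped. The libraries held 10249256 and 52050898 tags in WT and 22533077 and 44633938 in the mutants. WT replicate 2 had the most tags and the most peaks, while WT replicate 1 had the fewest tags but more peaks than either mutant. The part of sequencing depth in the peak counts was not tested.

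S1pr1 had the most peaks of the group, 10 and 30 in WT and 5 and 4 in the mutants. Cxcr4 had 11 and 21 against 7 and 8. Itga4 had 7 and 13 against 3 and 4, and Cd44 7 and 14 against 2 and 3. Both mutant counts lay below both WT counts for these 4 genes, for Ccr9 (2 and 4 against 1 and 0) and for Itgb7 (2 and 2 against 1 and 1). Itgb1 had 2 and 9 against 2 and 2, Ccr7 2 and 8 against 2 and 0, and Cxcr5 0 and 5 against 0 and 0, and these overlapped. The 6 of 9 genes compare with 35.6% of all 17769 genes with a peak. Among the 8 receptor genes with at least 2 peaks in each WT library the count was again 6, where 75.6% of the 5794 genes of this kind had the same order. With HOMER peaks the order held only for S1pr1 (12 and 29 against 5 and 8) and Ccr9 (2 and 6 against 1 and 0). Cxcr4, Itga4, Cd44 and Itgb7 then overlapped or tied. By HOMER peaks 19.5% of all genes showed the order.

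Scaled to the peaks of the library, 1 gene was lower and 1 higher in both mutant than in both WT libraries. Cd44 had 2.56 and 2.42 peaks per 10000 in WT and 1.51 and 1.84 in the mutants, an order shown by 20.8% of all genes. Cxcr4 had 4.02 and 3.64 in WT and 5.30 and 4.90 in the mutants, an order shown by 28.0%. When each library was limited to its 13208 peaks of highest score, the mean number for all 9 genes was 3.5 higher in the mutants, that of Cxcr4 also 3.5 higher, and that of S1pr1 2.5 lower.

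**Figure D4:**
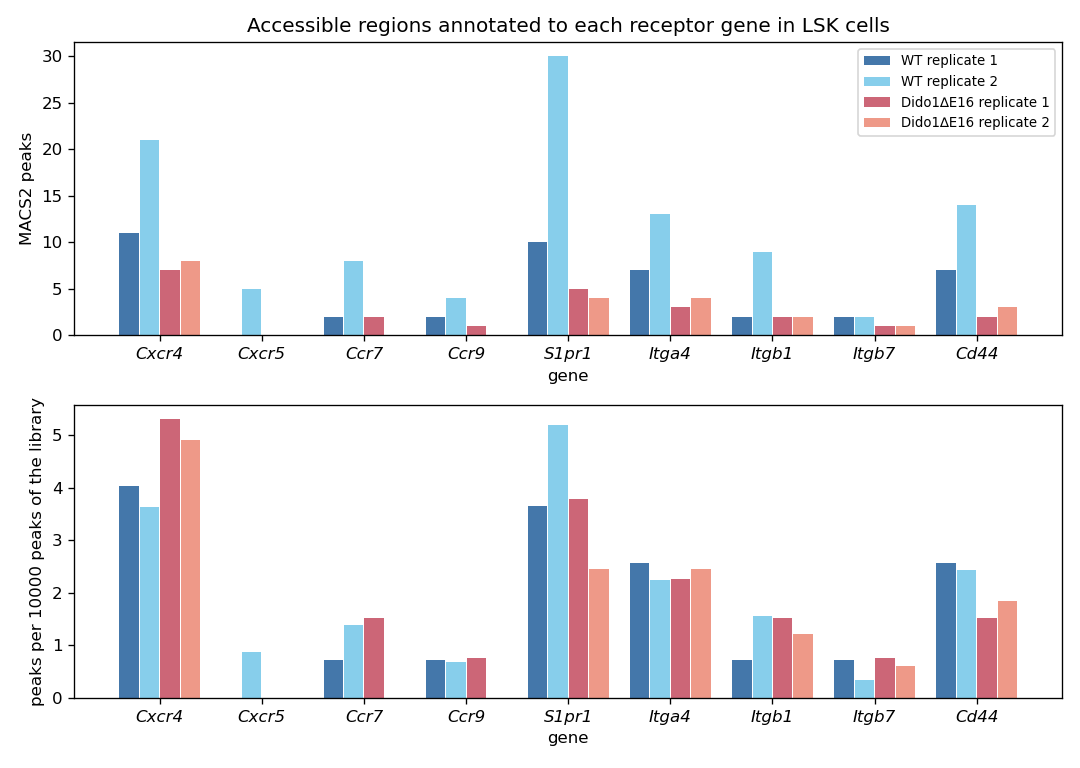
MACS2 peaks annotated to each receptor gene in the 4 LSK libraries (bars), as counts in the upper panel and per 10000 peaks of the library in the lower panel. The lower counts of the Dido1∆E16 libraries, such as 5 and 4 against 10 and 30 for S1pr1, mostly disappear once scaled, and Cxcr4 is then higher at 5.30 and 4.90 against 4.02 and 3.64.

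The peaks of the 9 genes merged into 110 regions. A single library held 62 of them, and in 58 cases this was WT replicate 2 (52.7%, beside 48.2% of the 60531 regions of all genes). Regions found in all 4 libraries numbered 9, or 8.2% beside 15% of all regions. Both WT libraries shared 42 regions, and no peak of either mutant library overlapped 17 of these (40.5%, beside 43.7% of the 26327 regions shared by the WT libraries over all genes). S1pr1 accounted for 6 of 10, Cd44 for 4 of 7, Cxcr4 for 3 of 11, Itga4 for 3 of 7 and Ccr9 for 1 of 2, while the 2 of Ccr7, the 2 of Itgb1 and the 1 of Itgb7 each met a mutant peak.

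The starts of 4 genes had a peak in every library. A peak in the promoter, set from 1000 bp before to 200 bp after the start, was present in all 4 libraries for S1pr1, Itga4, Itgb1 and Cd44, as for 33.9% of all genes with a peak. At Itgb1, the promoter printed above had MACS2 scores of 50 and 149 in WT and 29 and 35 in the mutants, and at Itga4 47 and 136 against 62 and 35. These scores grow with depth, and the libraries called different numbers of peaks, so each region was also ranked by score among the same 9072 regions with a peak in all 4 libraries, a measure added after the data were seen. By this rank the promoter of S1pr1 stood at percentiles 29.1 and 14.3 in WT and 47.9 and 20.8 in mutant libraries, that of Itga4 at 32.9 and 45.9 against 61.6 and 41.3, and that of Itgb1 at 36.8 and 53.0 against 17.8 and 41.3, all overlapping. The Cd44 promoter was among the weakest of these regions in each library, at 3.3 and 7.2 against 1.8 and 2.7.

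At Cxcr4 the peak in the single intron (chr1:128590762-128591616), not the promoter, was present in all 4 libraries, with rank percentiles of 15.4 and 13.8 in WT and 6.6 and 29.4 in mutant libraries, which overlapped. Ccr7 had a promoter peak in WT replicate 2 alone. Cxcr5, Ccr9 and Itgb7 had none in any library, although the last had a peak in intron 2 in 3 libraries. Ccr7, which gave the second highest mean TPM of the group in pre-B cells, and Cxcr5 were thus without a promoter peak in 3 and 4 of the LSK libraries, which are an earlier stage and other animals.

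Among distal regions, the one at -30.5 kb from the start of Itgb1, whose sequence is given above, had scores of 80 and 237 in WT and 36 and 28 in the mutants. Its rank percentiles were 67.8 and 84.4 in WT and 28.1 and 27.2 in mutant libraries. The region at -22.3 kb from Cxcr4 stood at 56.3 and 49.9 against 17.8 and 60.5, and that at -26.9 kb from Itga4 at 24.2 and 29.4 against 17.8 and 39.2, both overlapping. The one at -112.6 kb from Cxcr4 stood at 55.3 and 39.6 against 32.8 and 16.6. Of the 9 receptor regions found in all 4 libraries, 3 thus ranked lower in both mutant libraries (those of Itgb1 at -30.5 kb and Cxcr4 at -112.6 kb, and the Cd44 promoter) and none higher, where 18.2% of the 9072 regions ranked lower and 18.2% higher. The Itgb1 and Cxcr4 sequences were picked for scores that WT replicate 2 set, so their lower values elsewhere are a description.

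Other distal regions were missing from some libraries. One at -42.4 kb from Cd44 had scores of 88 and 177 in WT and 50 in Dido1∆E16 replicate 2, with no peak in replicate 1, and one at -46.4 kb, at 74 and 78 in WT, had none in either mutant library. In the other direction, a peak at -1.8 kb from Cd44 was called in Dido1∆E16 replicate 2 alone, with a score of 74. At -174.5 kb from Cxcr4 the score was 47 in Dido1∆E16 replicate 1, between the 16 and 66 of the WT libraries, and at -194.6 kb it was 45, between 29 and 85, with no peak in Dido1∆E16 replicate 2 at either place. These regions are annotated to the nearest gene, and no contact with its promoter was measured.

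**Figure D5:**
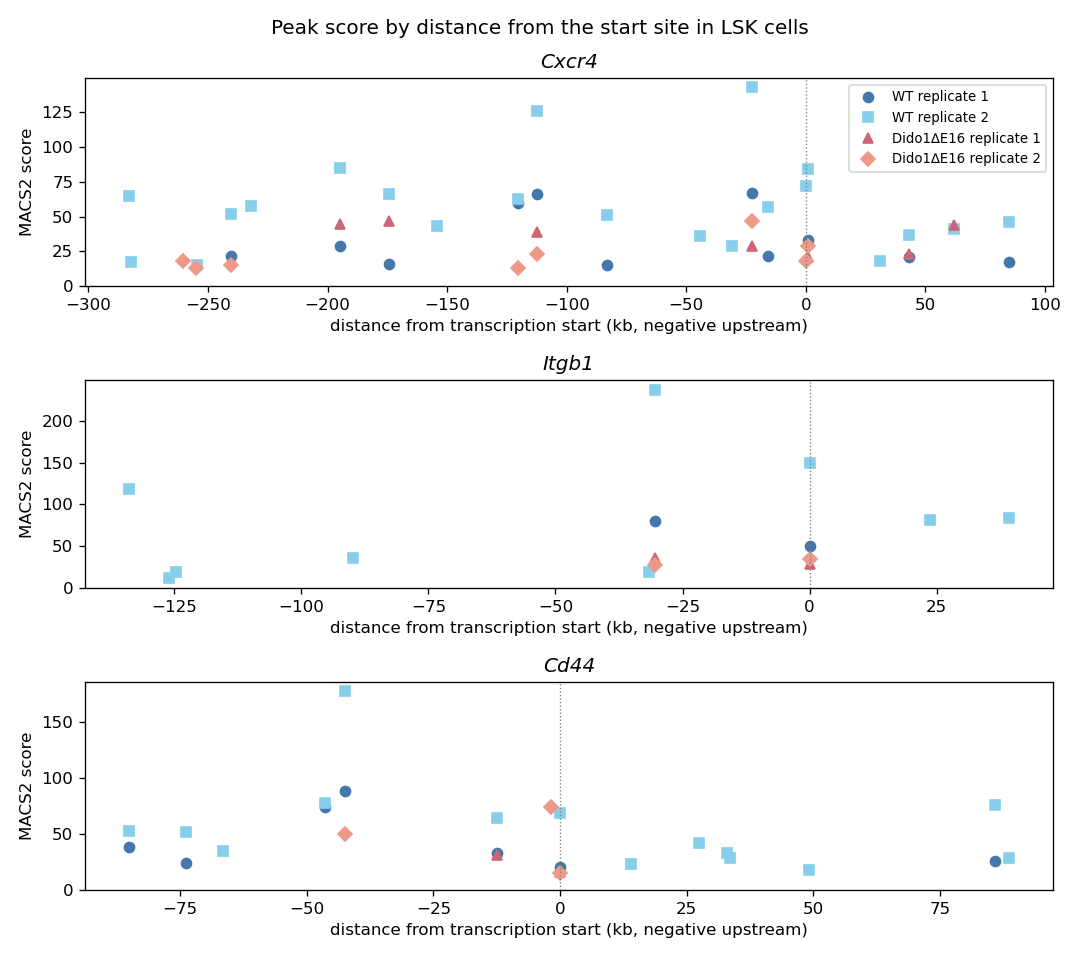
MACS2 score of each peak against its distance from the transcription start (kb, negative upstream) for Cxcr4, Itgb1 and Cd44, with 1 symbol per LSK library. The region at -30.5 kb from Itgb1 reaches 80 and 237 in the WT and 36 and 28 in the Dido1∆E16 libraries. Of the 9 regions of Itgb1, 7 hold a symbol of WT replicate 2 alone, as do 7 of the 15 regions of Cd44. WT replicate 1 and both Dido1∆E16 libraries are absent from these.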

How the data were processed

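Bone marrow pre-B cells (RNA-seq) and LSK cells (Omni-ATAC-seq) of WT and Dido1∆E16 mice were compared, with 2 libraries per genotype and assay. The labels list 2 ATAC-seq libraries per genotype where the methods state 3, and the labelled ones were used. RNA reads were aligned by the authors to mm10 with BWA 0.7.15, which does not split reads over introns, duplicates were removed, and StringTie 2.0 estimated known UCSC transcripts. Each deposited transcript file holds TPM, FPKM and coverage as the authors wrote them, in an attribute field with other entries, and TPM was the main unit. MACS2 and HOMER peaks were called by the authors for each library on its own and annotated with ChIPseeker. The deposited MACS2 files give a score and a width per peak. Tag totals were read from the header of the authors' lists of differential regions. The authors' own fold changes, p-values and abundances were not used.

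The authors' pairing of transcripts and symbols named 30125 transcripts. GENCODE M21 genes sharing at least 50% of the exonic bases named 26247 more, none for the 9 receptor genes. Where both were known, 97.3% matched. Log2(TPM + 1) of gene sums with a mean of at least 1 TPM was fitted by genotype with limma 3.58.1 (R 4.3.3, eBayes with a trend). The fit was tested on simulated data with 200 changed genes. Exon coverage was put on the TPM scale by 1 factor per library. Regions overlapped from 1 bp. Permutation tests used scipy 1.17.1, and figures matplotlib 3.10.9. RNA depth is given as coverage times length, since the files give no counts, so no counting intervals were made. The genes and lists were chosen with earlier results of these data known. All 9 receptor genes are named, and from each list any called gene plus up to 3 genes with the largest change among those whose genotypes did not overlap. A gene that this rule picks is not reported here. Alternatives were another pseudocount, filter, scaling, unit, variance model, block or threshold, leaving out each library, HOMER peaks, equal numbers of best-scoring peaks, the better-scoring 50% and an overlap of 50%.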

Additional observations from a re-analysis of the deposited data

How the results depend on the processing

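No receptor gene was called under any of the alternatives run. Of 104 alternative log2 fold changes of the 8 tested genes, 4 turned sign, those of Cxcr4 (0.19), Ccr7 (0.23) and S1pr1 (0.57) without WT replicate 2 and S1pr1 (0.02) without Dido1∆E16 replicate 2. Over the 4 fits that left out a library, Cxcr4 ranged from -1.15 to 0.19, Ccr7 from -0.77 to 0.23 and S1pr1 from -1.02 to 0.57. The 6 genes called became 0 with a pseudocount of 0.1, without a filter, at the stricter threshold (adjusted p below 0.01, change of 1 or more) and with the replicate block, 87 without a trend, 0 in every fit that left out a library and 9 with the symbols of the authors alone. The 25 transcripts called became 4, 3, 0 and 97 with the pseudocount of 0.1, no filter, the replicate block and no trend, 6 as gene sums, and from 0 to 532 without a library, where the lone library is assumed to vary like the other genotype. Deviations of same-numbered libraries correlated at 0.05 over genes, so the numbers were not taken as pairs. Median-centring moved the median of all genes from 0.07 to -0.02.

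The difference in peaks of -52.0 was 3.5 with equal numbers of best-scoring peaks and from -83.5 to -20.5 without a library, and for single genes it turned to 3.5 (Cxcr4), 1.0 (Ccr7 and Itgb7) and 0.5 (Ccr9 and Itga4). The 17 shared WT regions without a mutant peak (40.5%) were 26 without Dido1∆E16 replicate 1 and 24 without Dido1∆E16 replicate 2. Leaving out a WT library leaves nothing to share, so all receptor peaks of the other WT library were counted. Of these, 74 (69.8%) had no mutant peak without WT replicate 1 and 18 (41.9%) without WT replicate 2. The shared regions without a mutant peak were 11 (30.6%) with HOMER, 3 (27.3%) with equal numbers and 9 (56.2%) in the better-scoring 50%. The 6331 genes with fewer peaks in both mutant libraries were 3568, 922 and 3961 in the same order, and from 6589 to 13169 without a library. The causes were not tested. With 2 libraries a group, small differences could not be detected.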
